A study of Saccharomyces cerevisiae with 32 samples.

Results

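The strain difference between tps1 and WT budding yeast during the first minutes after fructose was measured in 6 of the 32 libraries of the series, 3 from each strain, taken 5, 10 and 15 min after fructose addition. WT was Saccharomyces cerevisiae strain DBY12000, and tps1 was strain DBY12383, with the genotype tps1, after the gene for trehalose 6-phosphate synthase. The labels do not describe the allele. Both strains were grown to log phase in defined medium (YNB) with 2% galactose, and fructose or glucose was then added to 2%. Each strain and sugar formed a course of 8 times with 1 poly(A) RNA library per time, so tps1 and WT were matched by time and sugar. The baseline was the same difference before any fructose or glucose, taken from the 0 min libraries of both courses (2 pairs). The labels do not say whether 1 course was 1 culture or whether a strain's 2 galactose libraries were grown apart. The p-values below therefore describe the spread between times and between these libraries, not between independent cultures.

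Yeast takes up hexoses through Hxt carriers and phosphorylates them with hexokinases and a glucokinase before they enter glycolysis. Tps1 makes trehalose 6-phosphate, the precursor of trehalose and an inhibitor of hexokinase, and cells without it are known for failing to grow on glucose or fructose while growing on galactose, with sugar phosphates building up above a glycolysis that runs short of phosphate and ATP. When a rapidly fermentable sugar reaches wild-type cells growing on galactose, genes for other carbon sources, respiration, reserve carbohydrates and stress defence are repressed, and genes for ribosome assembly are induced, through the Snf1 and Mig1 repression pathway, the protein kinase A pathway and the Rgt1 pathway of the sugar sensors.

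The libraries matched their strain labels at TPS1. This gene (YBR126C) stood at 326 and 279 FPKM (fragments per kilobase of gene and megafragment of library) in the 2 WT galactose libraries and at 145, 85.4 and 160.4 FPKM at 5, 10 and 15 min of fructose, and it was between 0 and 0.331 FPKM in the matching 5 tps1 libraries. Estimated from the steps between low values, the 6 fructose libraries held 3.61 to 7.59 M fragments (M stands for mega), with WT at 10 min the shallowest, and the 4 galactose libraries 6.26 to 7.75 M. Both strains carried the transcripts of mating type a cells and little of alpha cells (summed alpha markers at most 62.3 FPKM). The summed a markers were 4022 to 7618 FPKM in WT and 2627 to 3885 FPKM in tps1 at 5 to 15 min of fructose, against 1489 to 2733 and 1256 to 1581 FPKM in galactose. In the comparisons described below, 4 of the 6 a markers passed as lower in tps1 in fructose as measured, against 7.11% of all genes. None passed relative to the galactose difference. The part of these markers in any other result was not tested. The values of all genes in a library summed to 1.53 to 1.6 M FPKM in WT and 1.79 to 2.03 M FPKM in tps1 in these fructose libraries, and to 1.19 to 1.37 M FPKM in galactose. Setting all sums equal moved the median difference over all genes to -0.31 on the log2 scale, and where a list lost all its higher calls with that shift, this is said beside it.

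The strains separated widely within minutes of fructose. Among 6203 genes tested, the tps1 minus WT difference of log2(FPKM + 1), averaged over 5, 10 and 15 min, had moved from the galactose difference by at least 2-fold at an adjusted p under 0.05 (limma) for 558 genes. Of these, 223 (3.60%) were higher and 335 (5.40%) lower in tps1 relative to the galactose difference. As measured, with no baseline taken off, 776 genes (12.5%) passed, with 335 (5.40%) higher in tps1 and 441 (7.11%) lower. The count relative to galactose rested on both baseline pairs and on the later times: it was 35 with only the fructose course's 0 min pair, 136 with only the glucose course's, 249 without 10 min, 333 without 15 min and 123 with 3 min included. Equal FPKM sums gave 702 genes relative to galactose, 112 higher and 590 lower, and 907 as measured, 198 higher and 709 lower. Differences of single genes are given on the log2 scale with their standard error, relative to galactose unless said to be as measured, and "up to" beside an adjusted p gives the highest one reached over the alternative settings. Most single genes lost their call with a single baseline pair. Of 99 called genes picked by the naming rule, 10 (DSF1, FMP48, GAC1, GPP1, STD1, SUC2, TPO1, TPO2, YDR222W and ZNF1) passed under every alternative, and 0 of the 99 changed direction. As measured, 99 of the picked genes were called too, a set that differs in part from the first, and 81 of these passed under every alternative.

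**Figure D1:**
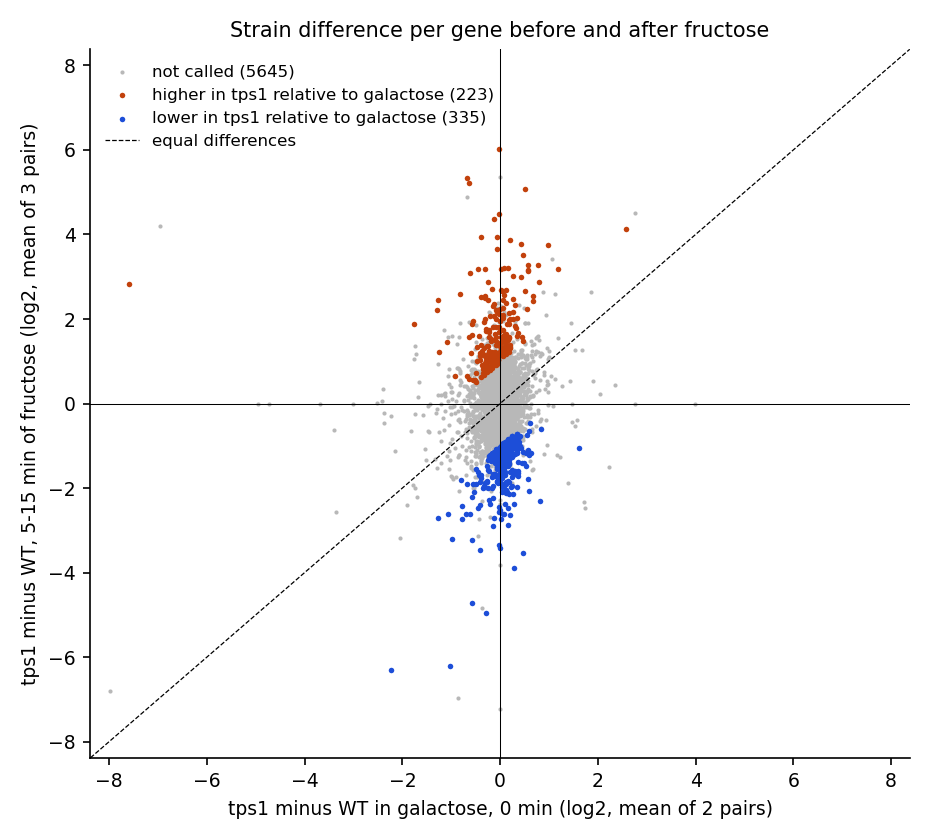
Mean strain difference of each gene at 5 to 15 min of fructose (vertical axis, 3 pairs) against that in galactose (horizontal axis, 2 pairs), both as tps1 minus WT of log2(FPKM + 1), 1 point per gene. Most genes lie near 0 in galactose, and the 223 higher and 335 lower genes spread upwards and downwards from there.

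The higher genes were mostly genes that WT lowered and tps1 kept. The following counts describe each strain's own change from galactose and were not tested. Of the 223 higher genes, 140 (62.8%) stood at least 2-fold below galactose in WT and within 2-fold of galactose in tps1, while 6 stood at least 2-fold up in tps1 alone. In the lower genes both strains took part: 128 of 335 (38.2%) stood at least 2-fold above galactose in WT alone, and 89 (26.6%) at least 2-fold below it in tps1 alone. A further 109 lower genes (32.5%) and 66 higher genes (29.6%) moved under 2-fold in both strains. The genes were chosen on the difference that these classes divide, and no shares of all genes are given for the classes. Over all genes tested, a set was formed per strain and direction. Each needed all 3 times beyond both of the strain's galactose libraries and a mean change of at least 2-fold. The set above galactose held 296 genes (4.77%) in WT and 111 (1.79%) in tps1. The 31 genes in both made up 10.5% of the WT set and 27.9% of the tps1 set, against 1.79% and 4.77% of all genes. Below galactose by the same measure, the sets held 312 genes (5.03%) in WT and 257 (4.14%) in tps1. The 36 shared genes made up 11.5% and 14.0% of these sets, against 4.14% and 5.03% of all genes.

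The separation built up over the first 10 min. For the 223 higher genes the median strain difference was -0.07 at 0 min of the fructose course and 0.50 at 3 min, then 1.21, 1.59 and 1.5 at 5, 10 and 15 min. WT's own median change at those 3 times was -1.06, -1.53 and -1.33, against 0.22, 0.26 and 0.30 in tps1. For the 335 lower genes the median difference went from 0.00 at 0 min and -0.65 at 3 min to -1.21, -1.40 and -1.30. Here WT's own median change was 0.88, 0.90 and 0.72, and that of tps1 was -0.49, -0.62 and -0.72. The genes were chosen on the 5 to 15 min values, so these medians describe the chosen genes and are not a test.

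**Figure D2:**
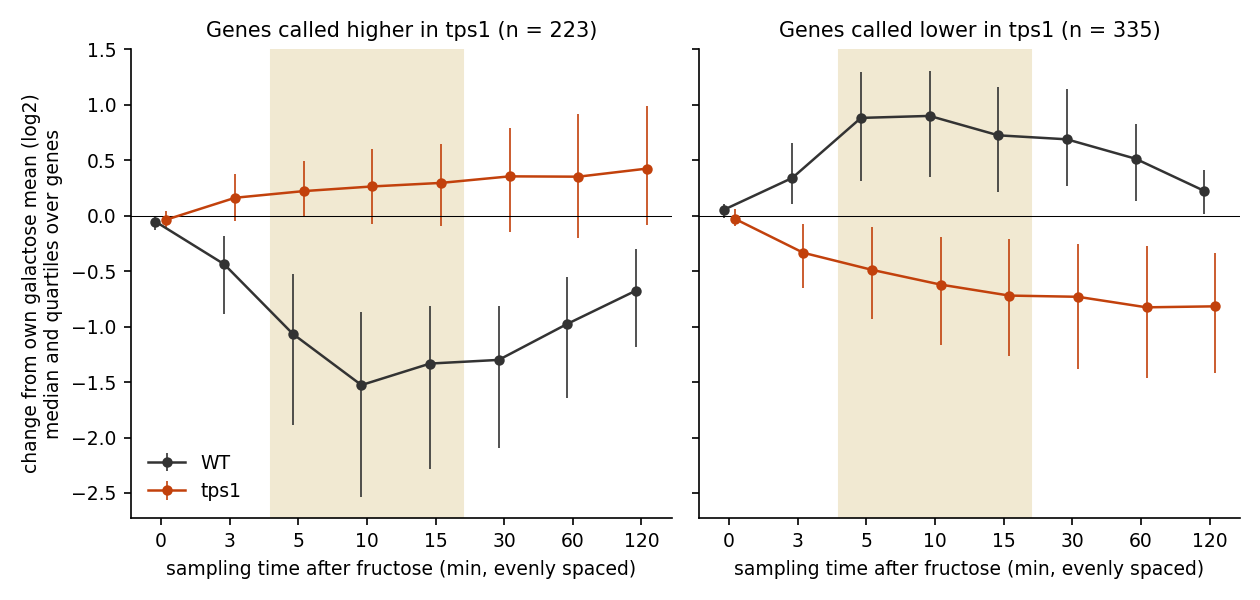
Median change from each strain's own galactose mean (log2 of FPKM + 1, points, with bars for the quartiles over genes) is drawn against sampling time in fructose for the 223 higher genes on the left and the 335 lower genes on the right, with 5 to 15 min shaded and times evenly spaced. On the left WT reaches -1.53 at 10 min while tps1 stays near 0.26, and on the right WT reaches 0.90 while tps1 is at -0.62.

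The store carbohydrates showed the pattern most fully in the glycogen genes. Of 12 glycogen genes tested, 7 were higher in tps1 relative to galactose, against 3.60% of all genes, and 10 as measured, with 0 lower in either comparison. Their median difference was 1.91 on the log2 scale relative to galactose, beside -0.01 over all genes. In WT all 12 stood below both galactose libraries at 5, 10 and 15 min, with a median change of -2.22, while the median in tps1 was -0.10. Over all genes tested, 27.4% stood below in WT by that measure. The 7 calls became 1 without the glucose course's 0 min pair, 1 without the fructose course's, 2 without 10 min and 4 without 15 min.

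Promoter windows are shown for 2 of these genes because the general stress element, AGGGG on either strand (CCCCT on the other), is the binding site of Msn2 and Msn4, the activators that protein kinase A keeps out of the nucleus. Each window runs from 400 to 101 bases before the start codon, 5′ to 3′ on the gene's strand, from the RefSeq sequence of build R64 (sacCer3), with the element in capitals. The 2 genes were picked after the matches were seen. GLC3 has 3 matches (chrV:132720-133019, plus strand) and PGM2 has 4 (chrXIII:477707-478006, minus strand).
GLC3: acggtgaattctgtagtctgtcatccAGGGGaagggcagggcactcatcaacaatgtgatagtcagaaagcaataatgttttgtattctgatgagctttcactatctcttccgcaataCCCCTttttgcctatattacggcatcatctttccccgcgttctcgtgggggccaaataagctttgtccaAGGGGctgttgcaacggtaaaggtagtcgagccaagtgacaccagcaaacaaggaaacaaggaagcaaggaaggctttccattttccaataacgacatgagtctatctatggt
PGM2: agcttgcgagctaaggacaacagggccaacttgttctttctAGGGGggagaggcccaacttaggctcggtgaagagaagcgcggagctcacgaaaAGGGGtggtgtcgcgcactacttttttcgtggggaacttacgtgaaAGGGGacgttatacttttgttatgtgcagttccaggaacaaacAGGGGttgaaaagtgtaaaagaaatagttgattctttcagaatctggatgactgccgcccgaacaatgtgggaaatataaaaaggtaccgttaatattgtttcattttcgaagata
A match was found in 52.2% of the 209 higher genes with such a window, in 17.8% of the 325 lower genes and in 23.9% of all 5712 windows. Among the glycogen genes the share was 75%, and among the other lists searched it ran from 10.0% for disaccharide use to 83.3% for general stress. These are letter matches in a fixed window, not binding sites.

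GLC3 (YEL011W), the glycogen branching enzyme gene, was at 77.7 and 62 FPKM in WT galactose and at 11.3, 3.61 and 8.87 FPKM at 5, 10 and 15 min of fructose, while tps1 had 60.2 and 51.5 and then 52.5, 45.7 and 43.8 FPKM. Every tps1 fructose library was above every WT one by a wide margin, and the 4 galactose libraries were close together. The difference relative to galactose was 2.86 ± 0.54 (adjusted p = 0.00775, up to 0.0993). PGM2, the main phosphoglucomutase, which links glucose 6-phosphate to glycogen and galactose use, was at 303 and 264 FPKM in WT galactose and 57.9, 15.5 and 28.2 FPKM in fructose, and at 252 and 207 and then 257, 281 and 284 FPKM in tps1. The tps1 fructose libraries were all just above the tps1 galactose ones, and WT was below them at every time. Its difference was 3.48 ± 0.87 (adjusted p = 0.0245, up to 0.167). GAC1, a glycogen-targeting subunit of the Glc7 phosphatase, differed by 2.51 ± 0.34 (adjusted p = 0.00196, up to 0.0349), and the glycogen synthase gene GSY1 by 3.69 ± 1.10 (adjusted p = 0.0447, up to 0.246), with WT at 12.8, 2.43 and 1.15 FPKM and tps1 at 36.8, 38.8 and 40.5 FPKM in fructose.

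Few trehalose genes passed. None of the 4 synthesis genes, TPS1 among them, was called relative to galactose (limma, 2 at an unadjusted p under 0.05, and up to 2 called under the alternatives). TSL1, a regulatory subunit of the synthase complex, was at 142 and 131 FPKM in WT galactose and 10.8, 12 and 40.1 FPKM in fructose, against 113 and 82.6 and then 70.4, 64.9 and 64.3 FPKM in tps1. The strains did not overlap in fructose, and the gene was called as measured (1.87 ± 0.46, adjusted p = 0.0069) and just missed the threshold relative to galactose (2.36 ± 0.73, adjusted p = 0.0507). TPS2, the trehalose 6-phosphate phosphatase gene, differed by 0.82 ± 0.52 (adjusted p = 0.303). It was at 35.5, 26.9 and 58.1 FPKM in WT and 58, 51.5 and 44 FPKM in tps1 in fructose, and the strains overlapped at 15 min. Of the 3 breakdown genes, ATH1, the acid trehalase gene, was higher in tps1 (1.36 ± 0.32, adjusted p = 0.0193, up to 0.147), a call that equal FPKM sums removed, and NTH1, the neutral trehalase gene, did not pass (0.40 ± 0.35, adjusted p = 0.456).

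Differences at the entry to glycolysis were largest in genes of the sugar kinases. Of 11 genes for hexose phosphorylation and upper glycolysis, 5 were higher and 1 lower relative to galactose, against 3.60% and 5.40% of all genes. HXK1 (YFR053C), a hexokinase gene, was at 1295 and 1269 FPKM in WT galactose and at 49.7, 8.3 and 12.8 FPKM at 5, 10 and 15 min. In tps1 it was at 1159 and 589 FPKM in galactose and 721, 687 and 666 FPKM in fructose. The lowest tps1 library was over 10-fold above the highest WT one in fructose, although the 2 tps1 galactose libraries differed from each other about 2-fold. The difference was 5.84 ± 1.51 (adjusted p = 0.0263, up to 0.15), and as measured it was 5.21 ± 0.95 (adjusted p = 0.00113, up to 0.0161).

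GLK1 (YCL040W), the glucokinase gene, was at 1543 and 1226 FPKM in WT galactose and 619, 252 and 204 FPKM in fructose, against 1133 and 983 and then 1601, 1918 and 1969 FPKM in tps1. WT moved down from galactose and tps1 up, and the strains did not overlap in fructose (2.90 ± 0.81, adjusted p = 0.0345, up to 0.212). Its paralog EMI2 differed by 3.64 ± 0.93 (adjusted p = 0.0253, up to 0.17). HXK2, the hexokinase gene that dominates on glucose, was at 222, 229 and 236 FPKM in WT and 666, 645 and 641 FPKM in tps1 in fructose, and its difference was 1.6 ± 0.43 (adjusted p = 0.0318, up to 0.179). The 2 genes for making fructose 2,6-bisphosphate, the activator of phosphofructokinase, differed in opposite directions. PFK26 was at 3.65, 4.4 and 5.15 FPKM in WT and 16.8, 14.8 and 15.8 FPKM in tps1 (1.52 ± 0.33, adjusted p = 0.0132, up to 0.122). PFK27 was at 87.6, 63.8 and 61.3 FPKM in WT against 11.5, 9.28 and 11.4 FPKM in tps1, from 30.2 and 42.4 FPKM in WT galactose and 28.7 and 16.2 FPKM in tps1 galactose (-1.90 ± 0.36, adjusted p = 0.00858, up to 0.135). In place of 5 higher genes there were 0 without the glucose course's 0 min pair, 0 without the fructose course's, 1 without 10 min and 1 without 15 min, while as measured there were 5 under every setting run.

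Few lower glycolysis genes were called relative to galactose. Of 12 genes, 7 stood above both galactose libraries at all 3 times in WT and 2 below, against 10 and 1 in tps1. Over all genes tested, 29.6% stood above and 27.4% below in WT, and 33.6% and 31.6% in tps1. The median change from galactose was 0.77 in WT and 0.91 in tps1. Relative to galactose 0 genes were higher and 1 lower, with 4 lower as measured, beside 5.40% and 7.11% of all genes lower. The gene called in both was TDH2 (YJR009C), a glyceraldehyde 3-phosphate dehydrogenase gene, at 1476 and 1164 FPKM in WT galactose and 4091, 8444 and 8802 FPKM in fructose, against 519.8 and 561 and then 952, 1055 and 1092 FPKM in tps1. WT was above tps1 in all 5 pairs, and the gap widened in fructose (-1.43 ± 0.37, adjusted p = 0.0276, up to 0.229). Its near-identical paralog TDH3 was at 26548, 30862 and 29623 FPKM in WT and 28619, 34558 and 38658 FPKM in tps1 and did not pass (0.86 ± 0.34, adjusted p = 0.101). How reads are split between these 2 genes is uncertain. CDC19, the main pyruvate kinase gene, was lower in tps1 as measured (-1.53 ± 0.22, adjusted p = 0.000254, up to 0.0157) and not called relative to galactose (-0.94 ± 0.35, adjusted p = 0.0891). In fermentation, the pyruvate decarboxylase gene PDC1 (-0.71 ± 0.42, adjusted p = 0.269) and the alcohol dehydrogenase gene ADH1 (-0.02 ± 0.34, adjusted p = 0.98) did not pass, and 2 of 13 genes were higher, beside 3.60% of all genes. These were the acetaldehyde dehydrogenase genes ALD4 (2.75 ± 0.80, adjusted p = 0.0401, up to 0.24) and ALD6 (1.57 ± 0.43, adjusted p = 0.0334, up to 0.258), with ALD6 at 331, 180.3 and 178 FPKM in WT and 513, 504 and 505 FPKM in tps1.

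The transporter gene HXT1 (YHR094C) appeared in WT and not in tps1. HXT1 encodes a low-affinity carrier induced by high sugar, and it was at 4.88 and 5.92 FPKM in WT galactose and at 15.8, 239 and 311 FPKM at 5, 10 and 15 min. In tps1 it stayed at 3.09 and 3.47 and then 3, 3.17 and 3.2 FPKM. WT at 5 min was already above every tps1 library, and the later 2 WT libraries were far above. The difference was -4.13 ± 1.09 (adjusted p = 0.0285, up to 0.26). HXT3, another low-affinity carrier gene, had the same order at 10 and 15 min (10.9, 52.2 and 95.2 FPKM in WT, 13.4, 11.5 and 12.4 FPKM in tps1), but at 5 min WT was the lower strain, and the gene did not pass (-1.79 ± 0.95, adjusted p = 0.217). Of the 11 transporter genes 1 was higher, HXT13 (2.47 ± 0.54, adjusted p = 0.0139, up to 0.123), and HXT1 alone was lower. These counts, beside 3.60% of all genes higher and 5.40% lower, are no result about the list. HXT4, another carrier gene, was lower as measured (-2.28 ± 0.46, adjusted p = 0.00192, up to 0.026) at 7.69, 15.3 and 23.4 FPKM in WT and 2.48, 1.15 and 2.98 FPKM in tps1, and close to the threshold relative to galactose (-2.29 ± 0.72, adjusted p = 0.0525). HXT7, a high-affinity carrier gene, was at 63.4 and 13.3 FPKM in the 2 tps1 galactose libraries, so its baseline was wide (1.70 ± 1.02, adjusted p = 0.274). The HXT genes are alike in sequence, and the split of reads among them is uncertain.

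Among 17 genes of sugar sensing and repression, 0 were higher and 2 lower relative to galactose. Beside 3.60% of all genes higher and 5.40% lower, these counts are no result about the list. STD1 (YOR047C), a regulator that acts with the repressor Rgt1 on the HXT genes, was at 3.75 and 2.57 FPKM in WT galactose and 11.9, 18 and 19.4 FPKM in fructose, against 3.93 and 2.3 and then 0.753, 0.281 and 1.13 FPKM in tps1. It stood above galactose in every WT fructose library and below it in every tps1 one (-3.31 ± 0.38, adjusted p = 0.000824, up to 0.0231). RGT2, a sensor of high sugar, was at 32.3, 24.7 and 21.8 FPKM in WT and 10.6, 11.4 and 9.03 FPKM in tps1 in fructose (-1.20 ± 0.32, adjusted p = 0.0313, up to 0.24). MTH1, the partner of Std1, was below galactose in both strains, at 4.14, 8.46 and 17.1 FPKM in WT and 46.4, 44.1 and 44.7 FPKM in tps1, and was called as measured only (2.26 ± 0.43, adjusted p = 0.0014, up to 0.0218). MIG1, for a repressor that acts on genes of other sugars, was at 52.3 and 50.9 FPKM in WT galactose and 9.03, 13.5 and 24.9 FPKM in fructose. It was at 50.5 and 58.3 and then 19.5, 16.9 and 15.9 FPKM in tps1, so the strains overlapped (0.17 ± 0.51, adjusted p = 0.849), and the sign of its small difference turned negative with equal FPKM sums and without 5 min.

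Galactose genes stayed up in tps1. Of 10 genes of the galactose regulon, 5 were higher relative to galactose and 7 as measured, against 3.60% and 5.40% of all genes. The list's median relative to galactose was 1.58. All 10 stood below both galactose libraries at every time in WT, against 27.4% of all genes. GAL1 (YBR020W), the galactokinase gene, was at 10387 and 9338 FPKM in WT galactose and 6254, 3320.0 and 2269.6 FPKM at 5, 10 and 15 min, against 10515 and 9966 and then 15494, 17340.0 and 19271 FPKM in tps1. WT stepped down with time while tps1 stood above galactose, in libraries whose FPKM sums were also larger, and the part of those sums was not tested within tps1. The strain difference was 2.20 ± 0.65 (adjusted p = 0.0424, up to 0.225). GAL2, the galactose permease gene, was at 452, 376 and 478 FPKM in WT and 7096, 6632 and 6287 FPKM in tps1 in fructose, from 7979 and 6465 FPKM in WT galactose and 7448 and 6285 FPKM in tps1 galactose (4.01 ± 0.61, adjusted p = 0.0029, up to 0.051). The epimerase gene GAL10, which overlaps an antisense transcript, differed by 1.79 ± 0.36 (adjusted p = 0.00994, up to 0.115). The 5 calls became 0 without the glucose course's 0 min pair, 1 without the fructose course's, 3 without 10 min and 3 without 15 min, while the count as measured was 7 in each of those fits.

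Genes for sucrose and maltose followed. Of 10 disaccharide genes 7 were higher in both comparisons, against 3.60% of all genes relative to galactose and 5.40% as measured. The list's median was 1.86 relative to galactose, and WT's median change was -1.93 against -0.05 in tps1. SUC2 (YIL162W), the invertase gene, was at 128 and 116 FPKM in WT galactose and 28.4, 23.2 and 27.5 FPKM in fructose, and at 169 and 93.3 and then 162, 169 and 186 FPKM in tps1. All 3 WT fructose libraries were below every tps1 library (2.62 ± 0.38, adjusted p = 0.0025, up to 0.0385). MAL33, the activator gene of the maltose locus, was at 6.05, 2.58 and 0.961 FPKM in WT and 131, 123 and 117 FPKM in tps1 (4.58 ± 0.62, adjusted p = 0.00188, up to 0.0514). The maltose permease gene MAL31 (2.48 ± 0.44, adjusted p = 0.00633, up to 0.068) and the maltase gene MAL12 (2.47 ± 0.41, adjusted p = 0.0045, up to 0.0654) were also higher, with the reservation that the MAL genes have near-identical copies. Relative to galactose, the count was 2 without the glucose course's 0 min pair, 3 without the fructose course's, 5 without 10 min and 6 without 15 min.

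Genes for growth on non-fermentable carbon had lower levels in fructose than in galactose in WT (median change -0.94) and not in tps1 (0.19). Of 20 tested genes for gluconeogenesis or the glyoxylate cycle, 9 were higher relative to galactose (median 0.92) and 11 as measured, with 0 lower. The shares of all genes that were higher were 3.60% and 5.40%. JEN1 (YKL217W), the lactate permease gene, was at 154 and 138 FPKM in WT galactose and 35.4, 13.4 and 4.65 FPKM in fructose, against 133 and 146 and then 187, 176 and 181 FPKM in tps1. The WT level was lower at each later time, and tps1 was above its galactose level at all 3 (3.73 ± 0.89, adjusted p = 0.0202, up to 0.167). ADR1, an activator of genes for ethanol and fatty acid use, differed by 2.71 ± 0.74 (adjusted p = 0.0326, up to 0.203), IDP2, the cytosolic isocitrate dehydrogenase gene, by 2.25 ± 0.43 (adjusted p = 0.00879, up to 0.13), and SFC1, a succinate and fumarate carrier gene, by 2.01 ± 0.54 (adjusted p = 0.03, up to 0.312). The genes for the 2 key gluconeogenic enzymes were low in all libraries and did not pass, FBP1 at 15.4, 16.7 and 11.3 FPKM in WT and 26.1, 28.1 and 25.4 FPKM in tps1 (0.67 ± 0.25, adjusted p = 0.0845), and PCK1 at 6.79, 5.52 and 5.69 and 9.97, 10.0 and 11.8 FPKM (0.41 ± 0.23, adjusted p = 0.235). The 9 calls became 2 without the glucose course's 0 min pair, 4 without the fructose course's, 4 without 10 min and 4 without 15 min.

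Of 17 tricarboxylic acid cycle genes, 8 were higher relative to galactose and 15 as measured, against 3.60% and 5.40% of all genes. Another 1 was lower as measured. With equal FPKM sums the first count became 5 higher and 2 lower, and with pairs left out it was 0 without the glucose course's 0 min pair, 0 without the fructose course's, 2 without 10 min and 3 without 15 min. MDH1 (YKL085W), the mitochondrial malate dehydrogenase gene, was at 1203 and 1202 FPKM in WT galactose and 338, 188 and 181 FPKM in fructose, while tps1 had 1004 and 1029 and then 1172, 1294 and 1273 FPKM. The 3 WT fructose libraries were well below all others (2.70 ± 0.57, adjusted p = 0.012, up to 0.123). SDH4, a succinate dehydrogenase subunit gene, was at 627, 251 and 172 FPKM in WT and 1697, 1711 and 1660.5 FPKM in tps1, with tps1 above its galactose levels of 897 and 1095 FPKM (2.80 ± 0.71, adjusted p = 0.0253, up to 0.214). SDH3 (2.27 ± 0.61, adjusted p = 0.0313, up to 0.229) and KGD2 (1.97 ± 0.41, adjusted p = 0.0114, up to 0.135), for a subunit of the 2-oxoglutarate dehydrogenase complex, were also higher.

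Downstream in respiration the differences were smaller. Of 23 respiratory chain genes, 3 were higher (median 0.73), namely the cytochrome c gene CYC1 (1.22 ± 0.29, adjusted p = 0.0191, up to 0.135), the external NADH dehydrogenase gene NDE1 (1.18 ± 0.19, adjusted p = 0.00407, up to 0.0625) and the Rieske protein gene RIP1 (1.02 ± 0.27, adjusted p = 0.0271, up to 0.176). Over all genes, 3.60% were higher relative to galactose, and with equal FPKM sums 0 of these 23 genes were called. NDE1 was at 446, 462 and 492 FPKM in WT and 998, 1024 and 1075 FPKM in tps1, a difference of about the same size at all 3 times. Of 17 ATP synthase genes 1 was called, beside 3.60% of all genes higher, so this count is no result about the list. The gene was STF2, for a stabilising factor of the ATP synthase (3.42 ± 0.66, adjusted p = 0.0088, up to 0.112), at 61.2, 40.1 and 77.5 FPKM in WT and 310.5, 367 and 388 FPKM in tps1 in fructose.

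**Figure D3:**
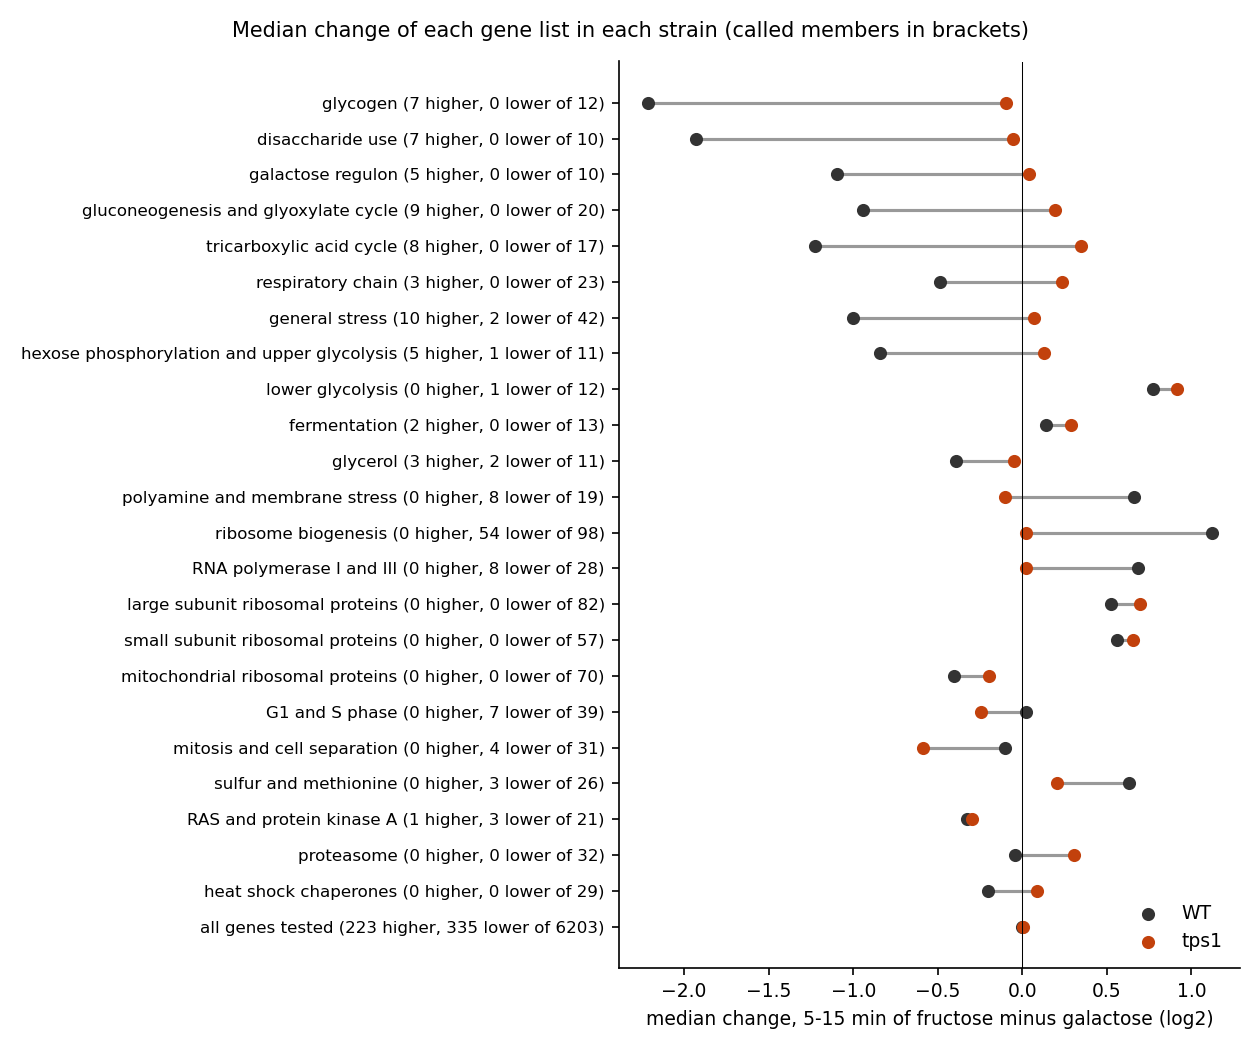
For each gene list, a point per strain gives the median change from galactose to 5 to 15 min of fructose (log2 of FPKM + 1), with a line joining the strains and, in brackets, the members called higher and lower in tps1 relative to galactose. WT lies far to the left of tps1 for glycogen (-2.22 against -0.10) and disaccharide genes (-1.93 against -0.05), and to the right of it for ribosome biogenesis (1.12 against 0.02).

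General stress genes differed unevenly. Of 42 tested, 10 were higher and 2 lower relative to galactose (median 1.10), and 13 higher and 6 lower as measured. The shares of all genes were 3.60% and 5.40% relative to galactose, and 5.40% and 7.11% as measured. Of the 2 lower genes, 1 was GPP2, which is also counted among the glycerol genes below. TMA10 (YLR327C), for a ribosome-associated protein whose coding length is under 300 bp, was at 1123 and 1107 FPKM in WT galactose and 14.6, 5.75 and 12.3 FPKM in fructose. In tps1 it was at 1139 and 1074 and then 934, 593 and 703 FPKM, so every tps1 library was far above every WT fructose library (6.04 ± 0.73, adjusted p = 0.000981, up to 0.0646). RGI1, a respiratory growth gene, was at 1.04, 0.753 and 3.56 FPKM in WT and 49.2, 57.8 and 46.6 FPKM in tps1, from 112 and 112 FPKM in WT galactose and 108 and 96 FPKM in tps1 galactose (4.49 ± 0.70, adjusted p = 0.00334, up to 0.051). The best known stress markers did not pass: HSP12, for a membrane-protecting protein (1.29 ± 0.57, adjusted p = 0.139), HSP26, a small heat shock protein gene (1.69 ± 0.71, adjusted p = 0.126), and CTT1, the cytosolic catalase gene (0.68 ± 0.45, adjusted p = 0.315). CTT1 overlapped between the strains, at 83.7, 37.4 and 69.8 FPKM in WT and 50.1, 52.6 and 56.6 FPKM in tps1. None of 29 chaperone genes was called (limma, 5 at an unadjusted p under 0.05, and at most 2 higher or 1 lower under the alternatives), and 1 of 25 oxidative stress genes, the superoxide dismutase gene SOD1 (1.06 ± 0.27, adjusted p = 0.0255, up to 0.195), was higher. SOD1 was not called as measured, and with equal FPKM sums that list had 0 higher and 1 lower. The 10 calls of higher stress genes became 1 without the glucose course's 0 min pair, 2 without the fructose course's, 3 without 10 min and 6 without 15 min.

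In the opposite direction stood a list of polyamine and membrane stress genes, put together with earlier results of these data known. Of 19 tested, 8 were lower in tps1 relative to galactose and 9 as measured, with 0 higher, and the median was -0.65. Over all genes, 5.40% and 7.11% were lower in these comparisons. TPO2 (YGR138C), for a polyamine exporter, was at 14.6 and 14.1 FPKM in WT galactose and 521, 411 and 248 FPKM at 5, 10 and 15 min, against 6.73 and 6.45 and then 4.33, 3.99 and 3.9 FPKM in tps1. The WT level was highest at 5 min, and tps1 stood below its galactose level at all 3 times. The difference was -5.20 ± 0.53 (adjusted p = 0.000669, up to 0.0197), and as measured -6.22. YRO2, a plasma membrane protein gene, was at 54 and 53.7 FPKM in WT galactose and 677, 1099.9 and 1046 FPKM in fructose and stayed between 9.90 and 11.8 FPKM in these 5 tps1 libraries (-4.07 ± 0.69, adjusted p = 0.00475, up to 0.0661). FMP48, for a putative mitochondrial kinase, went from 7.05 and 6.3 FPKM in WT galactose to 266, 174 and 108 FPKM and was at 4.15, 4.53 and 4.98 FPKM in tps1 (-4.66 ± 0.64, adjusted p = 0.00201, up to 0.0379). TPO1, another polyamine exporter gene, differed by -2.23 ± 0.29 (adjusted p = 0.00153, up to 0.0299). The 8 calls became 3 without the glucose course's 0 min pair, 6 without the fructose course's, 6 without 10 min and 7 without 15 min, and at least 9 were called as measured in each of those fits.

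Calls among glycerol genes went both ways. Of 11 tested, 3 were higher and 2 lower in tps1 relative to galactose, beside 3.60% and 5.40% of all genes. The 2 lower genes were GPP1 and GPP2, the glycerol 3-phosphatase genes, whose enzymes release glycerol. GPP1 (YIL053W) was at 434 and 565 FPKM in WT galactose and 4402, 3373 and 1959.6 FPKM in fructose, against 456 and 305 and then 310.2, 271 and 255 FPKM in tps1. WT was highest at 5 min, and its 3 fructose libraries were above all others (-3.06 ± 0.38, adjusted p = 0.00105, up to 0.0299). GPP2 differed by -1.98 ± 0.40 (adjusted p = 0.0109, up to 0.151), with WT at 957, 716 and 496 FPKM and tps1 at 111, 108 and 122 FPKM. GPD1, the glycerol 3-phosphate dehydrogenase gene of the same route, was at 1647, 784 and 607 FPKM in WT against 341, 331 and 352 FPKM in tps1 and was called as measured (-1.43 ± 0.35, adjusted p = 0.00656, up to 0.0666), not relative to galactose (-0.94 ± 0.56, adjusted p = 0.268). GUT1, the glycerol kinase gene (1.85 ± 0.35, adjusted p = 0.00793, up to 0.0993), and GUT2, for the mitochondrial glycerol 3-phosphate dehydrogenase (2.55 ± 0.50, adjusted p = 0.00936, up to 0.11), were higher in tps1. The 3 higher calls became 0 without the glucose course's 0 min pair, 0 without the fructose course's, 2 without 10 min and 2 without 15 min, while GPP1 kept its call under every alternative.

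Among the lists, ribosome biogenesis held the most genes that were lower in tps1. It covers the factors that make and fold ribosomal RNA into ribosomes. Of 98 tested, 54 were lower in tps1 relative to galactose, against 5.40% of all genes, with 0 higher, and the called differences ran from -2.31 to -1.01. The list's median level was 26.9 and 29.0 FPKM in the WT galactose libraries and 61.4, 64.9 and 60.5 FPKM at 5, 10 and 15 min. In tps1 it was 29.5 and 32 FPKM in galactose and 30.9, 30.1 and 30.3 FPKM in fructose. WT stood above both galactose libraries at all 3 times for 97 of the 98 genes, while in tps1 30 did so and 19 stood below both. Over all genes tested, 29.6% stood above in WT, and in tps1 33.6% stood above and 31.6% below, so the 30 genes are near the share of all genes. As measured 45 were lower, against 7.11% of all genes. The count of 54 became 78 with equal FPKM sums and 0 with 3 min included. With pairs left out it was 1 without the glucose course's 0 min pair, 9 without the fructose course's, 27 without 10 min and 35 without 15 min.

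Promoters of this group carry a pair of elements, known as RRPE (searched here as AAAATTT) and PAC (GATGAG), and windows of 2 genes with both are shown, chosen as before and drawn from the same build. RRPE and PAC letters on either strand are in capitals (CTCATC is PAC on the other strand, and AAAATTTT reads as RRPE on both). DBP2 (chrXIV:413239-413538, plus strand) and NSR1 (chrVII:807757-808056, minus strand) each have 3 RRPE matches and 1 PAC match.
DBP2: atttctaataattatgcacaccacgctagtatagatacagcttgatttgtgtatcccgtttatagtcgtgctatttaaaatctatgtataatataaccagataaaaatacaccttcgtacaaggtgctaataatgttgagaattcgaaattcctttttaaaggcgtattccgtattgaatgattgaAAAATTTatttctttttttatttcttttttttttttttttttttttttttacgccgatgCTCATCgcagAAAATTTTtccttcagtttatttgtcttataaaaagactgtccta
NSR1: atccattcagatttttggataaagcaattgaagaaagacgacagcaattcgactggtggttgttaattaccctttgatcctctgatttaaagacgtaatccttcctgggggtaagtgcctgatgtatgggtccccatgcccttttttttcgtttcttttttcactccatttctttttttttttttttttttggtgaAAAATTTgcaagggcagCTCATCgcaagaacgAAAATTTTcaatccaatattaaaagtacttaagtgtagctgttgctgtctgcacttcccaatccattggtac
RRPE letters were found in 87.8% of the ribosome biogenesis windows, in 44.3% of all lower genes, in 22.0% of higher genes and in 24.8% of all windows. The PAC shares in the same order were 66.3%, 33.5%, 10.0% and 18.0%. The ribosome biogenesis genes make up part of the lower genes, so the first 2 shares are not separate.

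DBP2 (YNL112W), an RNA helicase gene, was at 84 and 92.7 FPKM in WT galactose and 501, 605 and 349 FPKM in fructose, against 93.6 and 98.2 and then 115, 108 and 105 FPKM in tps1. The WT fructose libraries were all above every tps1 library, and tps1 stood just over its galactose level (-2.23 ± 0.45, adjusted p = 0.0109, up to 0.119). NSR1, for the nucleolin-like protein of the nucleolus, was at 158 and 173 and then 603, 540.0 and 369.6 FPKM in WT and at 170.5 and 185 and then 217, 213 and 188 FPKM in tps1, again without overlap in fructose (-1.37 ± 0.27, adjusted p = 0.00995, up to 0.112). UTP15, a subunit gene of the small subunit processome, and DBP7, a helicase gene of large subunit assembly, stood below galactose in tps1. UTP15 was at 83.8, 88 and 76.5 FPKM in WT and 23.8, 19.2 and 18.5 FPKM in tps1 (-2.01 ± 0.39, adjusted p = 0.00936, up to 0.112), and DBP7 at 30.8, 32.6 and 28.9 and 8.12, 7.13 and 6.06 FPKM (-2.31 ± 0.40, adjusted p = 0.00498, up to 0.0658). Of 28 genes for RNA polymerase I and III, 8 were lower, among them RRN11 (-2.53 ± 0.55, adjusted p = 0.0139, up to 0.142), RRN7 (-2.15 ± 0.43, adjusted p = 0.0102, up to 0.142) and RRN6 (-1.29 ± 0.36, adjusted p = 0.0345, up to 0.184), which encode the 3 proteins of the core factor of polymerase I. RPC82, a polymerase III subunit gene, was at 39.8, 39.5 and 33.1 FPKM in WT and 17.8, 13.7 and 13.3 FPKM in tps1 (-1.28 ± 0.23, adjusted p = 0.00704, up to 0.0916), with galactose levels between. ALB1, for a factor of large subunit export, differed by -2.0 ± 0.41 (adjusted p = 0.0109, up to 0.135). Over all genes, 5.40% were lower relative to galactose. The 8 calls of polymerase I and III genes became 0 without the glucose course's 0 min pair, 1 without the fructose course's, 3 without 10 min and 5 without 15 min.

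**Figure D4:**
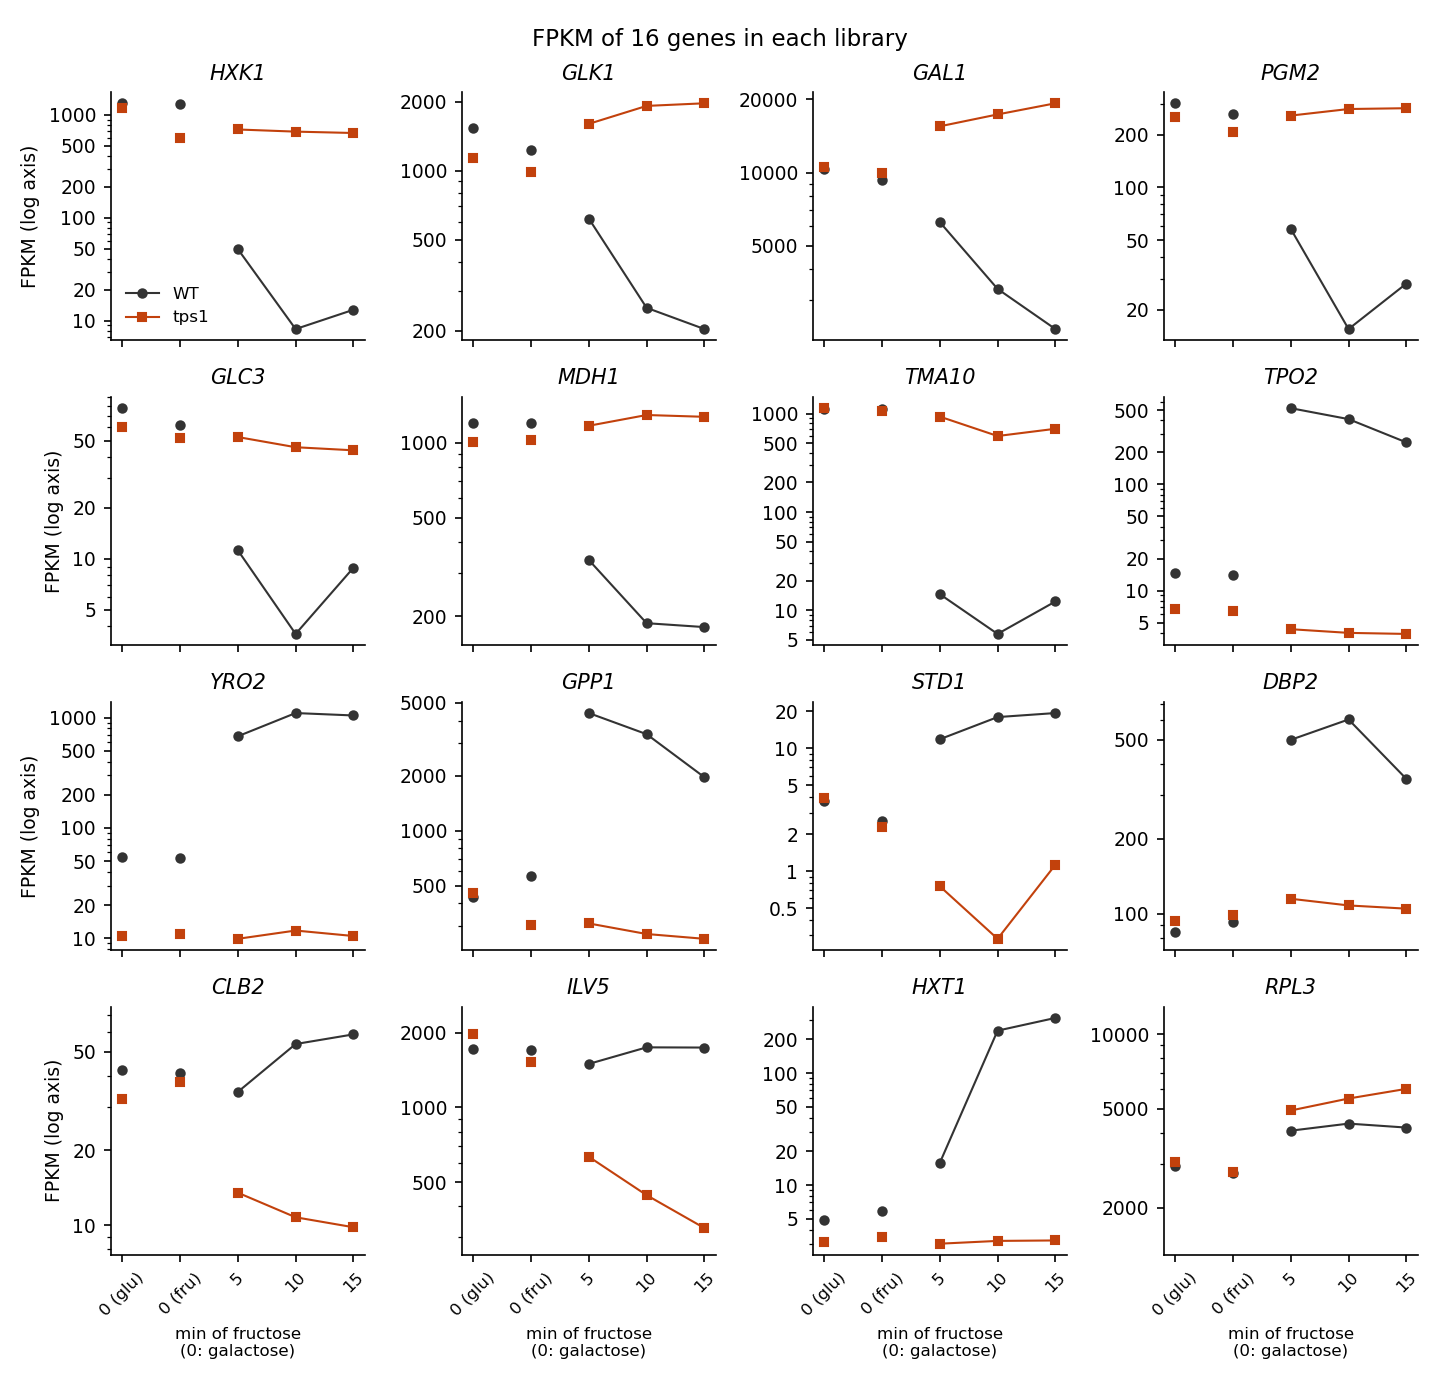
FPKM (log axis) of 16 genes in each of the 10 libraries, with the 2 galactose libraries at the left of each panel and the 5, 10 and 15 min fructose libraries joined by a line, circles for WT and squares for tps1. WT drops for HXK1, GLC3 and TMA10 and climbs for TPO2, GPP1 and HXT1. For these genes tps1 changes less than WT, with TMA10 and TPO2 below galactose in tps1 at every fructose time. For CLB2 and ILV5 it is tps1 that drops.

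Ribosomal protein genes did not follow the assembly factors. None of 82 large subunit and 57 small subunit genes was called in either comparison (limma). Relative to galactose 6 and 3 had an unadjusted p under 0.05, and at most 1 of each was called under the alternatives. Large subunit genes had a median change from galactose of 0.53 in WT and 0.70 in tps1, and small subunit genes one of 0.56 and 0.65, so both strains had higher FPKM than in galactose. The median strain differences relative to galactose, 0.16 and 0.15, became -0.16 and -0.17 with equal FPKM sums. RPL3, for a large subunit protein, was at 2933 and 2764 FPKM in WT galactose and 4083, 4359.6 and 4202 FPKM in fructose, and at 3067 and 2787 and then 4923, 5501 and 6017 FPKM in tps1 (0.34 ± 0.31, adjusted p = 0.488). RPS6A, a small subunit gene with a near-identical copy, differed by 0.33 ± 0.22 (adjusted p = 0.331). Mitochondrial ribosomal protein genes had 0 of 70 called (9 at an unadjusted p under 0.05, at most 1 called under the alternatives), and of 36 translation factor genes 1 was lower, NIP1, a subunit of initiation factor 3 (-1.45 ± 0.30, adjusted p = 0.0113, up to 0.147).

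Cell cycle genes called relative to galactose were lower in tps1. Of 39 G1 and S phase genes, 7 were lower in tps1 relative to galactose and 23 stood below both galactose libraries at all 3 times in that strain, where 31.6% of all genes did. Of 31 genes of mitosis and cell separation, 4 were lower relative to galactose and 9 as measured, and again 23 stood below. Over all genes, 5.40% were lower relative to galactose and 7.11% as measured. The calls of the G1 and S phase list and the mitosis list are not separate, as CDC6 is counted in both. CLB2 (YPR119W), the main mitotic cyclin gene, was at 42 and 40.9 FPKM in WT galactose and 34.4, 53.6 and 58.7 FPKM in fructose, against 32.2 and 37.8 and then 13.5, 10.8 and 9.81 FPKM in tps1. The 3 tps1 fructose libraries were the lowest of the 10 (-1.75 ± 0.35, adjusted p = 0.00988, up to 0.0878). CDC6, a replication licensing gene, was at 19.6, 16.2 and 15.1 FPKM in WT and 3.28, 2.26 and 3.71 FPKM in tps1 (-2.33 ± 0.42, adjusted p = 0.00684, up to 0.11). HCM1, a transcription factor gene of S phase, differed by -2.07 ± 0.29 (adjusted p = 0.00223, up to 0.0636). The G1 cyclin genes CLN3 and CLN1 were below galactose in both strains and further below in tps1: CLN3 was at 41.9, 45.7 and 51.4 FPKM in WT and 22.3, 20.9 and 17.6 FPKM in tps1 (-1.14 ± 0.29, adjusted p = 0.0261, up to 0.192), and CLN1 differed by -1.24 ± 0.33 (adjusted p = 0.0283, up to 0.202). PCL1, another G1 cyclin gene, was at 118, 119.8 and 112 FPKM in WT and 54.4, 38.8 and 33.4 FPKM in tps1 (-1.99 ± 0.44, adjusted p = 0.0141, up to 0.135), and the repressor gene YOX1 at 119, 106 and 66.1 and 38.5, 36.2 and 29.4 FPKM (-1.40 ± 0.30, adjusted p = 0.0128, up to 0.155). CLB1, the paralog of CLB2, differed by -1.22 ± 0.29 (adjusted p = 0.0187, up to 0.133). None of 10 histone genes was called (limma, 0 at an unadjusted p under 0.05, and 0 under the alternatives). The 7 calls of G1 and S phase genes became 0 without the glucose course's 0 min pair, 2 without the fructose course's, 3 without 10 min and 5 without 15 min, and the 4 of mitosis became 0 without the glucose course's 0 min pair, 1 without the fructose course's, 2 without 10 min and 3 without 15 min. As measured the 2 counts were at least 6 and 7 in those fits.

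Genes for the building blocks of growth gave scattered calls relative to galactose. The counts of 1 to 3 genes per list in that comparison, beside 3.60% of all genes higher and 5.40% lower, are no result about the lists. ILV5 (YLR355C), for an enzyme of branched-chain amino acid synthesis, was at 1713 and 1705 FPKM in WT galactose and 1497, 1746 and 1742 FPKM in fructose, against 1984 and 1528 and then 633, 443 and 327 FPKM in tps1. WT stayed near galactose while tps1 was lower at each later time (-1.90 ± 0.47, adjusted p = 0.0227, up to 0.194). It was 1 of 12 genes of its list. Among other amino acid genes, CPA1, of the arginine pathway, was lower (-1.14 ± 0.27, adjusted p = 0.0182, up to 0.216). GCN4, the activator of these pathways, did not differ beyond the spread (-0.12 ± 0.18, adjusted p = 0.689), and its sign turned with the fructose course's baseline alone. Of 26 sulfur and methionine genes 3 were lower, including SUL2, a sulfate permease gene, at 504, 166 and 194 FPKM in WT and 76.7, 62.3 and 57.5 FPKM in tps1 (-1.80 ± 0.35, adjusted p = 0.00944, up to 0.146). The others were MET8 (-1.40 ± 0.34, adjusted p = 0.0223, up to 0.152) and MET5 (-1.06 ± 0.28, adjusted p = 0.0289, up to 0.297), both of the sulfate reduction pathway, and WT was highest at 5 min for all 3. Of 28 nitrogen genes 2 were lower, the ammonium permease gene MEP3 (-1.80 ± 0.44, adjusted p = 0.0208, up to 0.135) and the glutamine synthetase gene GLN1 (-1.09 ± 0.28, adjusted p = 0.0271, up to 0.22). As measured, 2 nitrogen genes were higher and 9 lower, and 2 sulfur and methionine genes higher and 8 lower. Over all genes, 5.40% were higher and 7.11% lower as measured.

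The lists for purines and phosphate also held only 1 or 2 called genes in a direction, which is likewise no result about those lists. In purine salvage 1 of 15 genes was called in each direction. AAH1 (YNL141W), the adenine deaminase gene, was at 86.9 and 95.5 FPKM in WT galactose and 415, 456 and 308 FPKM in fructose, against 92.4 and 81.9 and then 107, 99.7 and 114 FPKM in tps1 (-1.79 ± 0.50, adjusted p = 0.036, up to 0.234). ISN1, for the IMP phosphatase that makes inosine, was at 42.9, 42.4 and 41.5 FPKM in WT and 81.4, 90.3 and 99.6 FPKM in tps1, from 65.5 and 56 FPKM in WT galactose and 48 and 50.5 FPKM in tps1 galactose. WT stood below its galactose level and tps1 above its own (1.37 ± 0.29, adjusted p = 0.0128, up to 0.148). Of 25 phosphate genes 2 were lower, GPP2, described above, and the high-affinity phosphate transporter gene PHO84, at 46.1, 42 and 29.5 FPKM in WT and 15.6, 14.6 and 13.2 FPKM in tps1 (-1.17 ± 0.30, adjusted p = 0.0253, up to 0.259). SPL2, a regulator of phosphate uptake, was at 3.58, 6.07 and 2.28 FPKM in WT and 3.29, 1.21 and 1.64 FPKM in tps1 and did not pass (-0.21 ± 0.54, adjusted p = 0.822). Of 23 genes of purine synthesis 1 was lower, the activator gene BAS1 (-1.30 ± 0.29, adjusted p = 0.0161, up to 0.176).

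Among 21 genes of the RAS and protein kinase A pathway, 1 was higher and 3 were lower relative to galactose, beside 3.60% and 5.40% of all genes. The list's median was 0.12, and with pairs left out each count fell as low as 0, so these counts are no result about the list. PDE2 (YOR360C), the high-affinity phosphodiesterase gene that breaks down cyclic AMP, was at 32.7 and 31.1 FPKM in WT galactose and 92.7, 31.1 and 33.1 FPKM in fructose, with only the 5 min library high. In tps1 it was at 29.1 and 26.3 and then 11.5, 6.48 and 6.81 FPKM, below every WT library (-2.18 ± 0.51, adjusted p = 0.0178, up to 0.148). SCH9, a nutrient-responsive kinase gene (-1.37 ± 0.31, adjusted p = 0.0172, up to 0.197), and GPR1, the sugar receptor gene (-1.11 ± 0.32, adjusted p = 0.0379, up to 0.2), were lower too. BCY1, the regulatory subunit that inhibits protein kinase A, was at 138, 109 and 119 FPKM in WT and 208, 228 and 249 FPKM in tps1 (1.04 ± 0.28, adjusted p = 0.0283, up to 0.17), and with equal FPKM sums it was not called. In the pentose phosphate pathway 2 of 12 genes were higher, ZWF1 (1.24 ± 0.37, adjusted p = 0.0457, up to 0.206) and GND2 (1.22 ± 0.35, adjusted p = 0.0395, up to 0.214), and with equal FPKM sums neither was called.

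Several further lists had few or no calls relative to galactose, at or near the shares of all genes. None of 32 proteasome genes passed (limma, 4 at an unadjusted p under 0.05, and 0 called under the alternatives), although 26 stood above both galactose libraries at all 3 times in tps1, against 33.6% of all genes, and their median difference was 0.43. Iron regulon genes had 2 of 27 lower, CCC2 (-1.18 ± 0.25, adjusted p = 0.0115, up to 0.114) and the activator AFT1 (-1.18 ± 0.30, adjusted p = 0.0263, up to 0.168). Of 26 ergosterol genes 1 was lower, ERG25 (-1.03 ± 0.25, adjusted p = 0.0207, up to 0.246), and of 29 cell wall genes 1, SCW11, for a glucanase of cell separation (-1.63 ± 0.40, adjusted p = 0.0227, up to 0.155). Of 21 genes of messenger RNA decay 1 was lower, NOT3, a subunit gene of the deadenylase complex (-1.07 ± 0.32, adjusted p = 0.0447, up to 0.202). None of 20 genes for folding in the endoplasmic reticulum was called (limma, 6 at an unadjusted p under 0.05, and 0 called under the alternatives).

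The highest called difference of all, 10.42 ± 2.57 (adjusted p = 0.0226, limma), belonged to YHR032C-A, an entry with no match in the annotation that the rule for named genes passes over, named here after its values were seen. It was listed at 230.3 and 161 FPKM in the 2 WT galactose libraries and at 357 FPKM in tps1 at 5 min, and at 0 in the other 7 libraries, so in fructose only 1 library had a value above 0. Other genes outside the lists included some of little known function. LEE1, for a zinc finger protein, was at 105 and 99.1 FPKM in WT galactose and 11.6, 0.625 and 3.43 FPKM in fructose, and at 96.9 and 104 and then 90.4, 105 and 104 FPKM in tps1 (4.50 ± 1.15, adjusted p = 0.0255, up to 0.181). YFL051C was at 1.05, 0 and 0.4 FPKM in WT and 20.7, 18.7 and 20.2 FPKM in tps1 (3.67 ± 0.57, adjusted p = 0.00339, up to 0.067). ZNF1, a transcription factor gene of respiratory growth, differed by 3.34 ± 0.44 (adjusted p = 0.00169, up to 0.0423) and DSF1, for a putative mannitol dehydrogenase, by 3.73 ± 0.37 (adjusted p = 0.000669, up to 0.0313). DSF1 was at 21.8 and 29.5 FPKM in WT galactose and 13.6 and 7.07 FPKM in tps1, so tps1 started lower, and at 1.08, 0.17 and 0.443 against 8.13, 6.71 and 7.18 FPKM in fructose. In the lower direction stood YDR222W (-4.17 ± 0.51, adjusted p = 0.00105, up to 0.0237), YLR108C (-4.00 ± 0.66, adjusted p = 0.00448, up to 0.0839), TDA6 (-3.42 ± 0.63, adjusted p = 0.00698, up to 0.0754), PRM7 (-3.05 ± 0.74, adjusted p = 0.0209, up to 0.205) and YNL234W (-2.76 ± 0.41, adjusted p = 0.00257, up to 0.051). ARI1, an aldehyde reductase gene, was at 23.9, 69.7 and 144 FPKM in WT, higher at each later time, and at 13.3, 13.3 and 9.38 FPKM in tps1 (-3.12 ± 0.73, adjusted p = 0.0186, up to 0.17).

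The same strain difference was measured in glucose. In a test of the strain difference at 5 to 15 min of fructose against that at 5 to 15 min of glucose, 0 of 6203 genes passed (limma, 400 at an unadjusted p under 0.05, and 0 or 1 under the alternatives). Of the 335 genes higher in tps1 in fructose as measured, 281 (83.9%) were at least 2-fold higher in glucose, and of the 441 lower genes 405 (91.8%) were at least 2-fold lower. Over all 6203 genes, 8.22% were at least 2-fold higher in glucose and 11.5% at least 2-fold lower. No library enters both mean differences, but the 2 counts are not fully separate. The glucose pairs entered the spread, and the filter on low values, of the fit that called the fructose genes. HXK1 was at 41.7, 4.57 and 6.88 FPKM in WT and 1071, 924 and 818 FPKM in tps1 at 5, 10 and 15 min of glucose, beside 49.7, 8.3 and 12.8 and 721, 687 and 666 FPKM in fructose. Among the genes named here, ALD6 had a difference between sugars of 1.56 ± 0.38 (unadjusted p = 0.00151, adjusted p = 0.512). MIG1 differed by 1.35 ± 0.45 (unadjusted p = 0.0113, adjusted p = 0.658), at 14.3, 16.3 and 29.6 FPKM in WT and 11, 7.7 and 6.82 FPKM in tps1 in glucose. With 3 pairs of libraries per sugar and 0 calls, no gene's difference between the sugars could be told from the spread, which does not show that the sugars act alike.

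**Figure D5:**
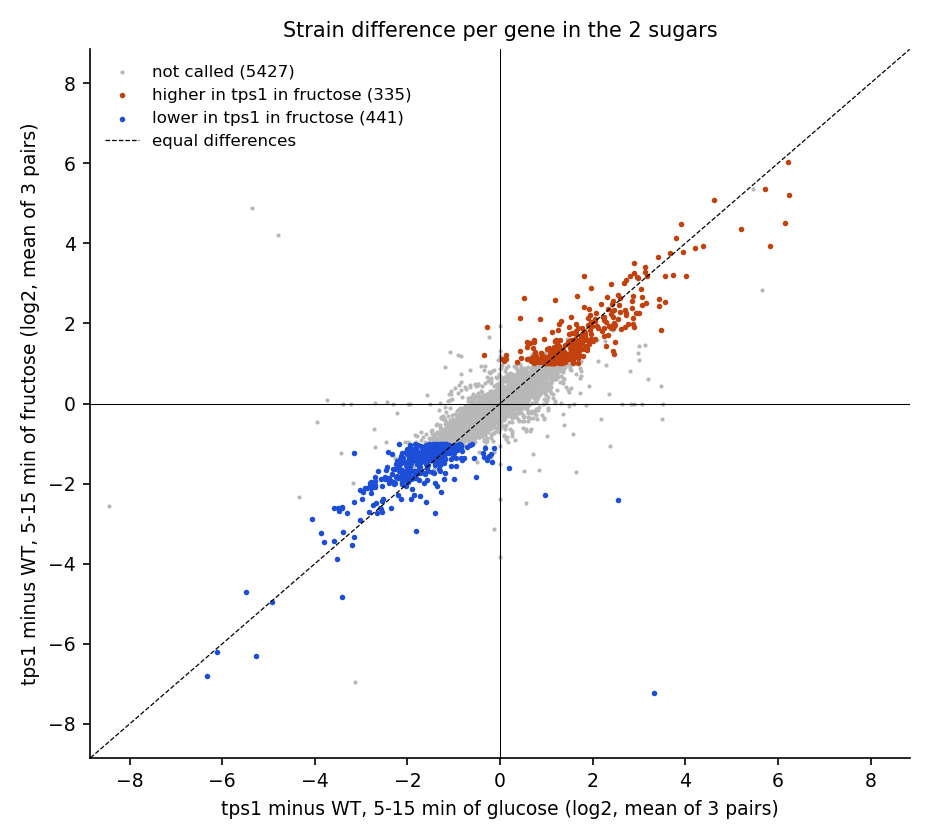
Mean strain difference as measured of each gene at 5 to 15 min of fructose (vertical axis) against that at 5 to 15 min of glucose (horizontal axis), both as tps1 minus WT of log2(FPKM + 1) over 3 pairs, 1 point per gene. Of the genes coloured as called in fructose, 83.9% of the 335 higher and 91.8% of the 441 lower ones differ at least 2-fold the same way in glucose.

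The genes called as measured were chosen at 5 to 15 min, so their counts at other times are a description. At 3 min of fructose, 62 of the 335 higher genes (18.5%) and 160 of the 441 lower genes (36.3%) differed at least 2-fold in that direction, and in galactose 9 (2.69%) and 17 (3.85%) did. At 30 to 120 min the counts were 251 (74.9%) and 310 (70.3%). Of all genes, 2.37% were higher and 4.61% lower by that measure at 3 min, 0.516% and 1.26% in galactose, and 10.2% and 10.5% at 30 to 120 min. In a test of the late strain difference against the early one, 0 genes passed (limma, 1284 at an unadjusted p under 0.05), with up to 152 under the alternatives, reached without 30 min. TPO2 was at 142, 70.0 and 72.4 FPKM in WT at 30, 60 and 120 min and 5.16, 8.27 and 4.58 FPKM in tps1, after 297 and 5.19 FPKM at 3 min, and its late minus early difference was 2.48 ± 0.47 (unadjusted p = 0.000171, adjusted p = 0.0647). For FMP48 it was 3.16 ± 0.57 (unadjusted p = 0.000115, adjusted p = 0.0647), with WT at 23.6, 18.8 and 13.9 FPKM at the late times. HXK1 in WT was at 6.11, 61.6 and 316 FPKM at 30, 60 and 120 min, with 120 min the highest, and tps1 was at 624, 609.9 and 659 FPKM. HXT1 was at 203, 271 and 276 FPKM in WT and 2.24, 4.49 and 3.77 FPKM in tps1.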

How the data were processed

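Poly(A) RNA from WT (DBY12000) and tps1 (DBY12383) was sequenced in 32 libraries from a stranded kit, per the labels' protocols, and the submitters' processing notes name CASAVA 1.4, TopHat2, Cuffnorm and build sacCer3. The deposited values are FPKM per gene for all libraries together. Sources used here do not give the role of each tool, any further scaling by Cuffnorm or the strand setting of the counting. The deposited FPKM sums differed between libraries. Of 6717 genes, 6025 matched the RefSeq annotation of R64 by name, and 1 entry without an ID was left out.

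Matched tps1 minus WT differences of log2(FPKM + 1) were formed for the 16 pairs of libraries, and the 6203 genes whose mean over the libraries reached 1 FPKM were fitted with limma 3.58.1 in R 4.3.3 (package data.table, version 1.17.8): 7 means, 9 residual degrees of freedom, a variance trend on the mean level (changed from the mean difference after results were seen) and Benjamini-Hochberg adjustment over all genes. Calls needed an adjusted p below 0.05 together with a 2-fold difference or more. Log2 values with a pseudocount of 1 understate changes of low genes. ± is the standard error. The pairs come from the design, by time and sugar. Depth was estimated by fitting steps to low values, with 86.96 to 97.67% of them within 0.1 of a whole number, and is no independent count. The fit was tested on simulated data. Python 3.11.15 (numpy 2.4.6, pandas 2.3.3, matplotlib 3.10.9) made tables and figures.

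Named genes are TPS1, the 12 highest and 12 lowest called genes that lay beyond both 0 min differences at all 3 times, up to 4 called genes of each list and a short set of known markers. Genes under 300 bp or unmatched are named only from lists. Of the genes the rule picks, 1 is not reported here. Members and lists were chosen with earlier results of these data known. Some genes, such as CDC6 and GPP2, belong to more than 1 list, so the counts of different lists are not separate. The description of the tps1 0 min library of the fructose course carries a mark, trd, that is not explained. Alternatives were the pseudocount, filter, scaling, short genes, variance trend, pairing, the 3 min time, the baseline and leaving out each pair.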

Additional observations from a re-analysis of the deposited data

How the results depend on the processing

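Of 99 called genes picked by the naming rule relative to galactose, 10 passed under each of 16 alternatives and 24 under each that kept both 0 min pairs, and 0 changed direction. As measured, 81 of 99 called genes, a set that differs in part, passed under each of 16 alternatives. The 558 calls relative to galactose became 123 with 3 min included, 35 with only the fructose course's 0 min pair and 136 with only the glucose course's, and between 35 and 598 with pairs left out in turn (249 without 10 min, 333 without 15 min). Fewer samples entered each of these fits except the one with 3 min. As measured, the 776 calls ranged from 537 (pseudocount 5) to 907 (equal FPKM sums), and from 674 to 899 with pairs left out. Without the pairing by time, as no replicate block, there were 646, 775, 0 and 42 calls relative to galactose, as measured, between sugars and between late and early fructose. For fructose against glucose the 0 calls became 1 with only those pairs fitted, and 0 to 1 with pairs left out. For late against early fructose the 0 calls became 24 without short or unmatched genes, 32 with 3 min included, 42 without the pairing, and 0 to 152 with pairs left out (10 without 15 min, 152 without 30 min). The cause was not tested.

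The alternatives for the gene lists, the left-out glucose and late fructose pairs and the trend on the mean difference (509 and 771 calls) were chosen after seeing the data. Genes that were not called changed sign in a few cases. Relative to galactose these were GCN4 (0.11 with only the fructose course's baseline, -0.343 to 0.11 with pairs left out), MIG1 (-0.134 with equal sums, -0.228 to 0.597 with pairs left out), MIG2 (0.03 with 3 min, -0.504 to 0.097), SPL2 (0.148 with 3 min, 0.087 with the fructose course's baseline, -0.512 to 0.28) and ADH1 (0.047 with 3 min, 0.035 with the glucose course's baseline, -0.148 to 0.057). As measured these were NTH1 (-0.013), GCN4 (-0.208), TDH3 (-0.034) and RPS6A (-0.062) with equal sums, and with pairs left out MIG1 (-0.157 to 0.668) and CTT1 (-0.514 to 0.091). The estimated depth, lowest in WT at 10 min, limits genes of a few FPKM.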
